A study of Rattus norvegicus with 24 samples.

Results

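The bile duct and ductular reaction markers are 10 genes that label bile duct cells or the small ducts that sprout in injured liver. They are the keratins Krt7, Krt19 and Krt23, the surface proteins Epcam, Cd24, Prom1 and Muc1, the secreted proteins Spp1 and Tff3, and the transcription factor Sox9. Members were the probe sets whose platform annotation names that gene and no other. Each gene had 1 such probe set, so 10 of 13438 measured genes are described, and their values played no part in the choice of probe sets. The genes themselves were chosen with earlier results of these data known.

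Liver RNA came from 24 male Sprague Dawley rats, 8 weeks old, on 24 arrays with 1 rat per array. ANIT (alpha-naphthylisothiocyanate) is toxic to the bile ducts of rodents and also harms nearby hepatocytes. Each ANIT rat received a single dose of 50 mg/kg by stomach tube, dissolved in corn oil at 10 ml/kg, and each vehicle rat received the corn oil alone. Livers were taken at 24 h, which the labels call the peak of injury, or at 120 h, called the time of repair, giving 4 groups of 6 separate rats. All of these rats were fasted for about 18 h and received BrdU, a DNA label, at 100 mg/kg about 2 h before necropsy. The tissue was whole liver, so fewer cells of a type and less RNA per cell cannot be told apart in any value given here.

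Cholangiocytes, the epithelial cells of bile ducts, carry a keratin skeleton of Krt7 and Krt19 that adult hepatocytes largely lack. In a ductular reaction, small duct-like cords of such cells spread from the portal tracts after cholestatic or toxic injury. These cells are known for the adhesion protein Epcam, the surface proteins Cd24 and Prom1, the osteopontin gene Spp1 and the transcription factor Sox9. Some of these genes are also active in other cells of the liver, Spp1 in macrophages and stellate cells and Cd24 in leukocytes.

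Values are deposited log2 expression values per probe set, and a change is the ANIT mean minus the vehicle mean on that scale, ± its standard error in a limma fit of all 24 arrays. A gene was called when its p, adjusted by the Benjamini-Hochberg method over 13438 genes, was under 0.05. Counts at an unadjusted p under 0.05 are also given. The share of all genes at that threshold was not counted, so nothing is read from them. The precision of a change rests on the spread of that gene over the arrays and on the 6 arrays in each group. The tissue label was borne out by the 9 measured hepatocyte markers, whose mean level lay between 11.62 and 11.91 on all arrays. The SD of the values of an array ran from 1.84 to 2.09, and the level of 9 spiked hybridisation controls from 10.48 to 11.69. The 6 arrays of lowest SD held 3 vehicle rats of the earlier time and 3 ANIT rats of the later one, the latter being replicates 4, 5 and 6. The labels used here name no hybridisation batch. Values with the control level as a covariate, or without those 6 arrays, therefore stand beside the members' results that they change, and control-level counts beside those of the other gene lists. RNA quality, read from the beta-actin probe sets as the log2 ratio of 3' over 5' signal, gave 3.12 ± 0.07 (SD, n = 6) for ANIT at 24 h against 2.84 ± 0.05 for its vehicle group, and 2.76 ± 0.15 against 2.83 ± 0.08 at 120 h.

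Of the members 3 were dim. The brightest of 23 background probe sets on an array lay between 2.88 and 3.10, and Krt7, Krt23 and Sox9 had means over all arrays of 3.85, 3.75 and 3.42. Their mean distance above that brightest background probe set was 0.89, 0.79 and 0.46, under 1 log2 unit, which also held for 9.49% of all genes. The other 7 members lay between 2.08 (Spp1) and 3.95 (Epcam) above it. Small values near the background compress changes, so the dim members carry little information in either direction.

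At 120 h, when the injury was resolving, Krt19, Cd24 and Prom1 were higher in ANIT livers, by 1.58-fold to 1.66-fold. At 24 h none of the members was called higher, and Cd24 and Prom1 were lower, by 1.30-fold and 1.31-fold. For 8 of the 10 members the highest group mean was that of ANIT at 120 h, and for 7 the lowest was that of ANIT at 24 h. The 8 include the dim Krt7 and Krt23. The share of all genes with such an order was not counted, so nothing is read from these counts. In the plot of values by rat, the ANIT rats of 120 h stand above the other groups in Krt19 and Cd24. In Prom1 all but the lowest of them do so, while the group means of Krt7 and Sox9 lie close together.

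**Figure D1:**
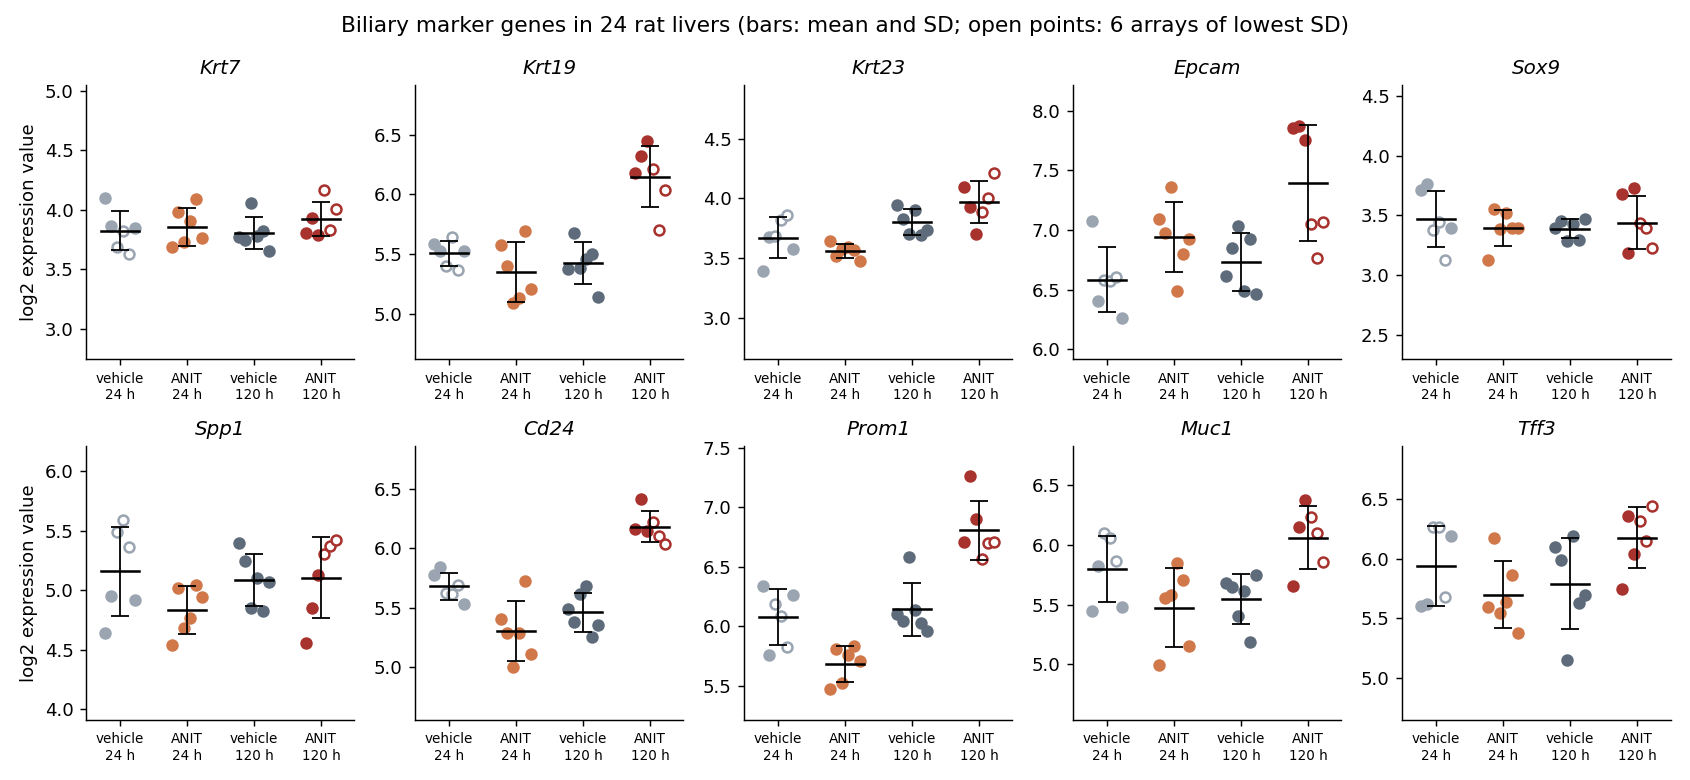
Log2 expression value (vertical axes, each spanning the same number of log2 units) of the 10 members in each rat, by group. Points are rats, black bars the group mean and SD (n = 6), and open points the 6 arrays of lowest SD. The ANIT rats of 120 h lie above all vehicle rats of 120 h in Krt19 and Cd24.

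The first comparison asked which members differed between ANIT and vehicle livers at 120 h. Of the 10 members 3 were called higher and 0 lower, where 0.513% of all genes were called higher and 1.51% lower. The members were chosen with earlier results of these data known, so they are not an independent set beside that share. At an unadjusted p under 0.05, where the share of all genes was not counted, 6 members were higher and 0 lower. All 10 changes were positive, with a median of 0.45, beside -0.0059 over all genes. The smallest, 0.02 for Spp1, turned to -0.08 with the control level in the model. The share of all genes by sign was not counted, so nothing is read from the signs. In 2 members, Krt19 and Cd24, the groups did not overlap, as was so with the ANIT rats higher in 0.558% of all genes. With the control level in the model 4 members were called higher, beside 1.88% of all genes.

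Among the keratins, Krt19 changed and the others were not called. Krt19, an acidic keratin of duct epithelium, ran from 5.14 to 5.68 with a median of 5.42 in vehicle rats at 120 h, and from 5.70 to 6.45 with a median of 6.20 in ANIT rats. All 6 ANIT rats lay above the highest vehicle rat, though the lowest of them, replicate 5 at 5.70, did so narrowly. Krt19 rose by 0.73 ± 0.12 on the log2 scale, 1.66-fold (limma adjusted p = 0.0015). Without the 6 arrays of lowest SD it rose by 0.89 (adjusted p = 0.0028). Krt7, the basic keratin that pairs with acidic keratins in duct cells, had a change of 0.12 ± 0.10, with a 95% interval from -0.08 to 0.31. Its groups overlapped, with 1 ANIT rat above all vehicle rats. Krt23, an acidic keratin, had a change of 0.17 ± 0.09 (interval from -0.02 to 0.36), and 3 ANIT rats lay above the vehicle rats. Both intervals lie below the value of Krt19, and both genes are among the dim members.

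The surface proteins gave the other calls. Cd24, a small glycoprotein anchored in the membrane by lipid, ran from 5.25 to 5.68 (median 5.44) in vehicle rats and from 6.03 to 6.42 (median 6.15) in ANIT rats at 120 h. The groups stood clearly apart, with a gap of more than the SD of either group, 0.16 and 0.13. Cd24 rose by 0.72 ± 0.11, 1.64-fold (limma adjusted p = 0.00041). Prom1, the pentaspan protein prominin-1 of membrane protrusions, ran from 5.96 to 6.58 (median 6.08) in vehicle and from 6.56 to 7.26 (median 6.71) in ANIT rats. Vehicle replicate 3 at 6.58 stood above the rest of its group and just above the lowest ANIT rat, so 5 of 6 ANIT rats lay above every vehicle rat. Prom1 rose by 0.66 ± 0.13, 1.58-fold (limma adjusted p = 0.0048).

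Epcam, the epithelial cell adhesion molecule, had a similar change but split the ANIT rats into separate sets. It ran from 6.46 to 7.04 (median 6.73) in vehicle rats and from 6.77 to 7.87 (median 7.41) in ANIT rats at 120 h. ANIT replicates 1 to 3, on arrays of higher SD, lay between 7.75 and 7.87, and replicates 4 to 6, on arrays of lowest SD, between 6.77 and 7.06. The change of 0.66 ± 0.18 was not called (limma adjusted p = 0.060). With the control level in the model Epcam rose by 0.78 ± 0.13 (adjusted p = 0.00062), and without the 6 arrays of lowest SD by 1.10 (adjusted p = 0.0052). It was also called after quantile normalization, with the beta-actin ratio as covariate, without vehicle replicate 1 of 24 h or ANIT replicate 5 of 120 h, and when genes below the median level were left out (adjusted p = 0.0029, 0.038, 0.043, 0.025 and 0.037). Without vehicle replicate 1 of 24 h, and with genes below the median level left out, the change itself stayed at 0.66. Thus the call of Epcam varied with the model, the arrays kept and the genes adjusted for.

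Muc1, a transmembrane mucin of apical duct membranes, ran from 5.19 to 5.75 (median 5.63) in vehicle and from 5.66 to 6.38 (median 6.13) in ANIT rats at 120 h. In 5 of 6 ANIT rats it lay above all vehicle rats, and replicate 1, at 5.66, was the exception. The change of 0.51 ± 0.15 missed the threshold (limma adjusted p = 0.082), and without that rat it was 0.60 (adjusted p = 0.040). Tff3, a trefoil peptide secreted with mucus, had a change of 0.38 ± 0.17 (adjusted p = 0.32), and 3 ANIT rats lay above the vehicle rats. Its values ran from 5.15 to 6.19 in vehicle rats, the group SD of 0.38 being the widest among the members there.

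Spp1 and Sox9 showed no call at 120 h. Spp1, the secreted phosphoprotein osteopontin, ran from 4.83 to 5.40 (median 5.09) in vehicle and from 4.56 to 5.42 (median 5.22) in ANIT rats, so the groups covered nearly the same range. Its change was 0.02 ± 0.16, with a 95% interval from -0.31 to 0.35, and it turned to -0.08 with the control level in the model and to -0.24 without the 6 arrays of lowest SD. Spp1 lay between 4.56 and 5.13 in ANIT replicates 1 to 3 and between 5.30 and 5.42 in replicates 4 to 6, the opposite order to Epcam. Sox9, a transcription factor of biliary fate, had a change of 0.05 ± 0.11 (interval from -0.17 to 0.28), near the background.

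**Figure D2:**
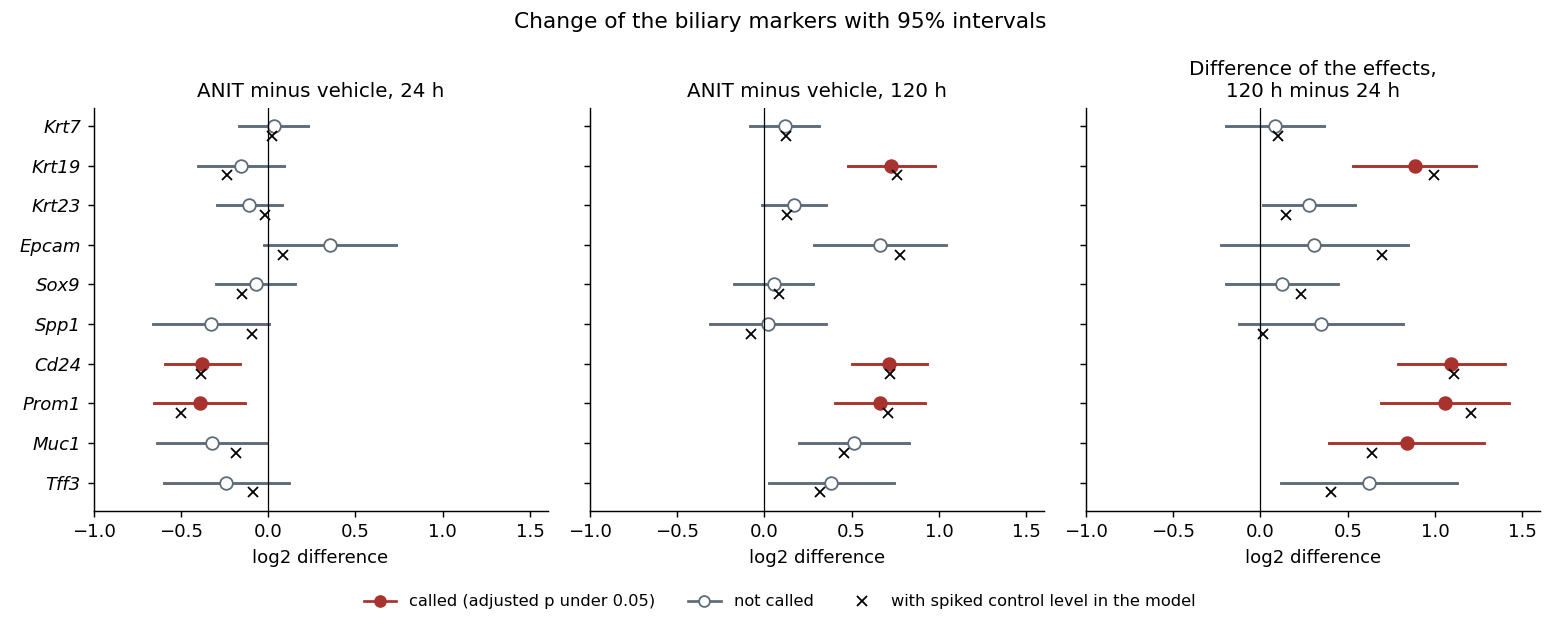
Log2 difference (horizontal axes) of each member for ANIT against vehicle at 24 h and 120 h and for the difference between those effects. Circles are estimates with 95% intervals, red where called, and crosses are estimates with the spiked control level in the model. At 120 h the intervals of Krt19, Cd24 and Prom1 lie above 0.40, and at 24 h those of Cd24 and Prom1, and narrowly that of Muc1, which was not called, lie below 0.

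The 300 bases around the start site are shown for the surface protein genes, from the RefSeq promoter table (GRCr8). Of these, Cd24 and Prom1 were called at 120 h, and Epcam and Muc1 had the next largest changes without a call. Each window holds 250 bases before the start and 50 from it, 5′ to 3′ on the gene's strand, and capitals mark the letters of a searched motif. Prom1 has another start in the table, whose window held no searched motif.
Cd24 chr20:48656227-48656526 (+ strand): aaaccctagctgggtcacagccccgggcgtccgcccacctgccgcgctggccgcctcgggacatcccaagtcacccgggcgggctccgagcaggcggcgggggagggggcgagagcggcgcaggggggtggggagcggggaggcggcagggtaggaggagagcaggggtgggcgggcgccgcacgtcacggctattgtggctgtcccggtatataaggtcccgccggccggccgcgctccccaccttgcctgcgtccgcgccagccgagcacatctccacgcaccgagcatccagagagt
Prom1 chr14:71211389-71211688 (+ strand): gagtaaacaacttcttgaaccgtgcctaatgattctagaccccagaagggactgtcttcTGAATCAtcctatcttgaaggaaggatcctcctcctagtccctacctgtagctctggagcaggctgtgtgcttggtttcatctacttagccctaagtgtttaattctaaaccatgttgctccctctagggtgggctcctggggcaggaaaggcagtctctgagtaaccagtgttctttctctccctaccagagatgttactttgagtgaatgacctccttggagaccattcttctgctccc
Epcam chr6:12649629-12649928 (- strand): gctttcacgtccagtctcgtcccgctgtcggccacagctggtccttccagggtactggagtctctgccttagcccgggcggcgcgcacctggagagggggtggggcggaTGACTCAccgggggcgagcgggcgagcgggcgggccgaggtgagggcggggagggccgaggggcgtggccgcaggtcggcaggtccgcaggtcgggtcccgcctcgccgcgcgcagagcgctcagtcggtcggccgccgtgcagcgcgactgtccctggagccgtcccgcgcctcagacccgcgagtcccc
Muc1 chr2:176933500-176933799 (+ strand): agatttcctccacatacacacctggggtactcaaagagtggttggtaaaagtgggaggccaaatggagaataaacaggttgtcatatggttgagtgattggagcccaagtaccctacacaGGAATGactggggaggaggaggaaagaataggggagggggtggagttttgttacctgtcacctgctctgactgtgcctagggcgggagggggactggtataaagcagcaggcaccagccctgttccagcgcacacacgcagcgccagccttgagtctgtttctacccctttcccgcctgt

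The motifs were searched on both strands in the 8 windows of the 7 members in the table, and their matches did not overlap. They were GGAATG for TEAD factors, TGANTCA for AP-1, GTGGGAA for RBPJ, ACAAAG for SOX factors and GTTAAT for HNF1. Epcam held an AP-1 match at -141 and Prom1 at -191 from the start, and 7.33% of 33469 promoter windows of the same length held that motif. Muc1 held a TEAD match at -130, a motif found in 14.2% of windows. Spp1 held the HNF1 letters at -187, found in 7.45% of windows. Cd24, Krt23 and Tff3 held none of the 5 motifs, nor did any member window hold the RBPJ or SOX letters, which 6.29% and 18.8% of all windows contain. These are letter matches in a short window and no evidence of binding. Krt7, Krt19 and Sox9 had no window in the promoter table and were not searched.

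The next comparison asked how the same genes stood at 24 h. Of the 10 members 0 were called higher and 2 lower, where 12.9% of all genes were called higher and 5.31% lower. At an unadjusted p under 0.05, where the share of all genes was not counted, 0 were higher and 3 lower. The median change was -0.20, beside 0.0046 over all genes, with 2 positive and 8 negative values. Here too the share of all genes by sign was not counted, so nothing is read from the signs. No member had groups that did not overlap, which was so for 5.54% of genes with ANIT higher and 2.32% with ANIT lower.

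Cd24 ran from 5.54 to 5.84 (median 5.66) in vehicle rats at 24 h and from 5.01 to 5.72 (median 5.29) in ANIT rats. Of the ANIT rats 5 lay below all vehicle rats, and replicate 5, at 5.72, lay among them. Cd24 fell by 0.38 ± 0.11 (limma adjusted p = 0.012). Prom1 ran from 5.76 to 6.34 (median 6.14) in vehicle and from 5.47 to 5.83 (median 5.73) in ANIT rats, 3 of which lay below all vehicle rats. Prom1 fell by 0.39 ± 0.13 (adjusted p = 0.029), and by 0.50 ± 0.12 with the control level in the model (adjusted p = 0.0033).

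These calls at 24 h were less settled than those at 120 h. After arrays were shifted to a common median the adjusted p was 0.063 for Cd24 and 0.13 for Prom1, with smaller changes of -0.30 and -0.32. Without the 6 arrays of lowest SD it was 0.059 and 0.078, though the changes were larger, -0.42 and -0.44. That fit dropped 3 of the 6 vehicle rats of 24 h and no ANIT rat of that time. With the beta-actin ratio as covariate, which was higher in the ANIT rats of 24 h, Cd24 lost its call (adjusted p = 0.073) and Prom1 kept it (adjusted p = 0.038). The change of Cd24 in that fit was -0.47. The ratio ran with ANIT at 24 h (3.12 ± 0.07 against 2.84 ± 0.05, SD), so that fit separates ANIT from the ratio poorly. The call of Prom1 was also lost without vehicle replicate 1, 3, 4 or 6 or ANIT replicate 1 or 3 of 24 h, with an adjusted p of up to 0.078. With the control level in the model 2 members were called lower, beside 10.5% of all genes.

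The other members were not called at 24 h. Krt19 had a change of -0.16 ± 0.12 (limma adjusted p = 0.39), its ANIT rats running from 5.09 to 5.70 and its vehicle rats from 5.36 to 5.65. Epcam, unlike most members, had a positive change of 0.35 ± 0.18 (limma adjusted p = 0.19), which was 0.08 ± 0.13 with the control level in the model. Muc1 had a change of -0.32 ± 0.15 (adjusted p = 0.15), Spp1 of -0.33 ± 0.16 (adjusted p = 0.17) and Tff3 of -0.24 ± 0.17 (adjusted p = 0.36). With the control level in the model these were -0.19, -0.10 and -0.09. Without vehicle replicate 1, the lowest vehicle rat for Spp1 at 4.64, Spp1 fell by 0.43 (adjusted p = 0.045). The keratins Krt7 and Krt23 had changes of 0.03 ± 0.10 and -0.11 ± 0.09, and Sox9 of -0.07 ± 0.11.

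The effect of ANIT on 4 members differed between the times. The difference of the effects, 120 h minus 24 h, was called higher for 4 of 10 members and lower for 0, where 3.33% of all genes were called higher and 11% lower. At an unadjusted p under 0.05, where the share of all genes was not counted, 6 members were higher and 0 lower. The difference was 1.09 ± 0.15 for Cd24 (limma adjusted p = 2.2e-05), 1.06 ± 0.18 for Prom1 (adjusted p = 0.00025), 0.88 ± 0.17 for Krt19 (adjusted p = 0.0010) and 0.84 ± 0.22 for Muc1 (adjusted p = 0.010). Muc1 was thus called only here, its changes at 24 h and 120 h having opposite signs and neither passing the threshold. The difference for Muc1 was 0.63 without the 6 arrays of lowest SD (adjusted p = 0.20) and 0.65 with beta-actin as covariate (adjusted p = 0.31). That covariate, which ran with ANIT at 24 h, also took Krt19 to an adjusted p of 0.051. The difference for Krt19, 0.85, stayed near the 0.88 found without it. For Epcam the difference was 0.31 ± 0.26 (adjusted p = 0.43), and 0.69 ± 0.19 with the control level in the model (adjusted p = 0.015). In that model 5 members were called higher, beside 6.11% of all genes. Tff3 had 0.62 ± 0.25 (adjusted p = 0.087), Spp1 0.35 ± 0.23 and Krt23 0.28 ± 0.13. With the control level in the model these were smaller, at 0.40, 0.02 and 0.15, and none was called. Tff3 passed without vehicle 24 h replicate 1, ANIT 24 h replicate 2 or ANIT 120 h replicate 1 (highest adjusted p = 0.047), and Krt23 without vehicle 24 h replicate 1 (adjusted p = 0.048).

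The vehicle groups gave the members' spread without injury. Between 24 h and 120 h, 0 of 10 members were called, by limma, beside 0.00744% of all genes, a single gene. At an unadjusted p under 0.05, where the share of all genes was not counted, 1 member differed. This was Cd24, lower at 120 h by a change of -0.22 ± 0.11 (adjusted p = 0.41). The group SDs in vehicle rats lay between 0.08 (Sox9 at 120 h) and 0.38 (Tff3 at 120 h), and those of Krt19 were 0.11 and 0.18.

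The ANIT rats of 120 h did not order alike across members. Replicates 2, 3 and 6 each held the highest value in 3 of the 10 members, and replicate 1 the lowest in 3. Replicate 3 had the highest Krt19, at 6.45, and replicate 2 the highest Cd24, Prom1 and Epcam, at 6.42, 7.26 and 7.87. The means of replicates 1 to 3 minus those of replicates 4 to 6 were 0.87 for Epcam, 0.33 for Krt19, 0.30 for Prom1, 0.12 for Cd24 and -0.52 for Spp1. For Muc1 it was -0.0018 and for Tff3 -0.25, so among the 7 brighter members Cd24 and Muc1 had the values nearest 0.

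Over the 24 arrays, with the spiked control level removed from each gene, Cd24 had the highest Pearson's r with Krt19 among 13437 other genes. This is a description of arrays that share groups and array effects. Pearson's r was 0.89 and Spearman's rho 0.81, and r was 0.57 after the group means were removed. Other measures gave another order, as Cfl2 had a rho of 0.87, and within groups r was 0.64 for Cfl2 and 0.58 for Postn. The next were Postn, a matrix protein, at r = 0.87, Cfl2, an actin-binding cofilin, at 0.87, Cenatac, a splicing protein, at 0.86, and Mfap4, a microfibril-associated protein, at 0.86. Postn rose by 1.43 ± 0.21 at 120 h (limma adjusted p = 0.00047) and Mfap4 by 0.91 ± 0.15 (adjusted p = 0.0010), while Cfl2 had 0.22 ± 0.10 and Cenatac 0.27 ± 0.11. Among members, Prom1 stood at r = 0.78, rank 20, and Epcam at 0.75, rank 33. Sox9, at 0.12, and Spp1, at 0.18, were least like Krt19. After the group means were removed, r with Krt19 was 0.20 for Prom1 and 0.28 for Epcam.

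**Figure D3:**
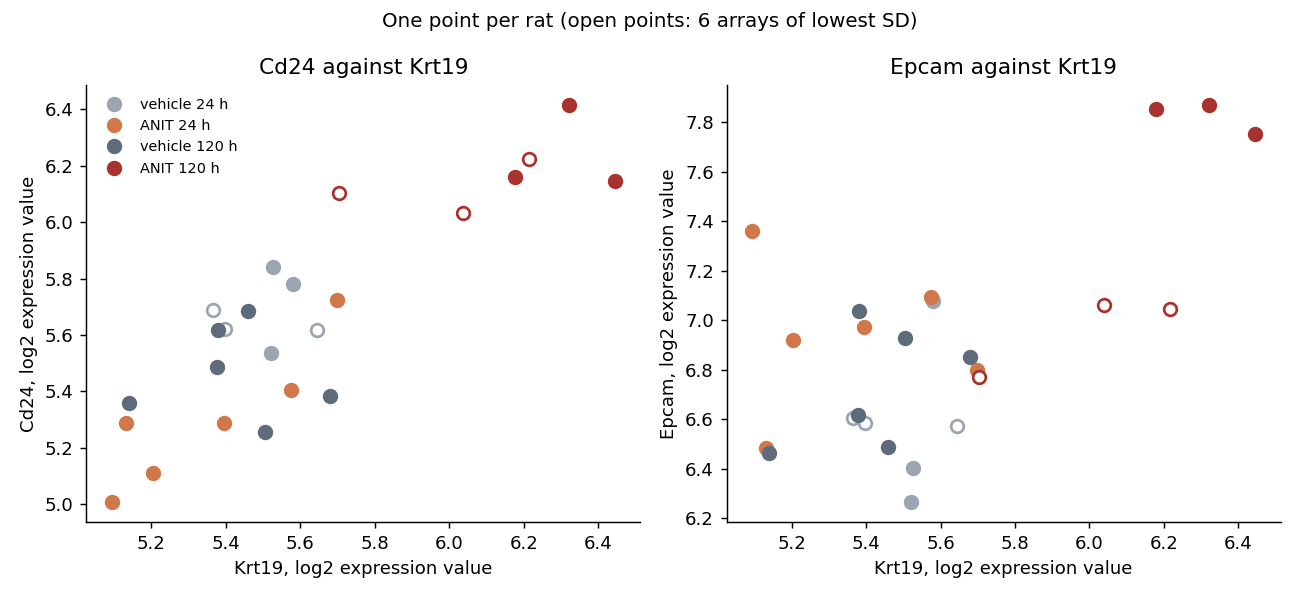
Log2 expression value of Cd24 and of Epcam (vertical axes) against that of Krt19 (horizontal axes), 1 point per rat, coloured by group, with open points for the 6 arrays of lowest SD. In Cd24 the 6 ANIT rats of 120 h lie together above the rest, and in Epcam those on arrays of lowest SD lie lower, between 6.77 and 7.06, than the others.

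Other genes of the biliary epithelium were counted in 4 lists, beside 0.513% of all genes called higher at 120 h and 12.9% at 24 h. With the control level in the model, 1.88% of all genes were called higher at 120 h and 10.5% lower at 24 h. The share called higher at 24 h in that model is not given, so nothing is read from those counts. Of 19 measured structure genes, among them keratins and genes of cell junctions and membranes, 1 was called higher and 0 lower at 120 h, with a median of 0.22. The control level made this 2 higher, as Anxa4 passed (adjusted p = 0.039). The call without it was Tspan8, a tetraspanin of epithelial membranes, which ran from 6.56 to 7.21 in vehicle and from 7.73 to 8.44 in ANIT rats. Tspan8 rose by 1.14 ± 0.16, 2.21-fold (limma adjusted p = 0.00029), a larger value than that of any member. The tight junction gene Cldn6 had 0.60 ± 0.20 (adjusted p = 0.14) and the annexin Anxa3 0.40 ± 0.14 (adjusted p = 0.15). At 24 h 2 of the 19 were called higher and 0 lower, and these were the keratins Krt18 and Krt8, which hepatocytes also make, with changes of 1.16 ± 0.13 and 1.07 ± 0.18. The control level made this 4 higher and 1 lower, as Cd44 and Cldn6 (adjusted p = 0.0015 and 0.020) and, lower, Itga6 (adjusted p = 0.0074) passed. At 120 h Krt8 and Krt18 were not called. Cldn7 of the structure list lay within 1 log2 unit of the background. The third smallest p at 24 h was that of the desmosome gene Dsp, at 0.49 ± 0.20 (adjusted p = 0.097).

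Transport and transcription factor genes gave few calls. Among them Pkd1, Kcnn4 and Foxj1 lay within 1 log2 unit of the background. Of 14 cholangiocyte transport and cilium genes, 1 was called higher and 0 lower at 120 h (median 0.14). Cftr, the apical chloride channel of bile duct cells, rose by 0.49 ± 0.12 (limma adjusted p = 0.037), from a vehicle median of 3.99 to 4.58 in ANIT rats, with groups that overlapped. Its signal was low, as its vehicle rats of 120 h began at 3.73 and the brightest background probe set reached 3.10. The difference between times was 0.59 ± 0.17 for Cftr (adjusted p = 0.023). The nucleotide receptor P2ry2 had -0.45 ± 0.18 (adjusted p = 0.25) and the gamma-glutamyltransferase Ggt1 0.24 ± 0.11 (adjusted p = 0.31). At 24 h 1 of 14 was called higher, the bile acid carrier Slc10a2, and 0 lower, where the control level added Aqp1 as lower (adjusted p = 0.046). Of 13 biliary transcription factors 0 were called at 120 h, with 2 higher and 0 lower at an unadjusted p under 0.05. These were Klf5, at 0.59 ± 0.20, and Sox4, at 0.53 ± 0.19 (adjusted p = 0.14 and 0.17), and with the control level in the model Sox4 rose by 0.65 (adjusted p = 0.0054). At 24 h 1 was called higher and 1 lower. Klf6 rose by 0.76 ± 0.14 (adjusted p = 0.00024) and Sox4 fell by 0.64 ± 0.19 (adjusted p = 0.018), and with the control level Foxa2 was also called lower (adjusted p = 0.0062). The difference between times for Sox4 was 1.17 ± 0.27 (adjusted p = 0.0041), in the direction of Cd24 and Prom1.

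Of 27 measured genes of signals known from ductular reactions, 5 were called higher and 1 lower at 24 h (median -0.04), where 12.9% and 5.31% of all genes were, so nothing is read from the counts of this list. They became 6 and 2 with the control level in the model. Tnfrsf12a, the receptor of the cytokine TWEAK, ran from 4.45 to 5.48 in vehicle and from 6.07 to 7.98 in ANIT rats at 24 h. Ccn2, a matricellular protein and target of YAP signalling, rose by 1.59 ± 0.20 and Amotl2, another YAP target, by 0.64 ± 0.09 (limma adjusted p = 1.9e-06 and 2.0e-05). In these 3 genes all ANIT rats lay above all vehicle rats. The other calls were Fgfr2 and Ccn1, higher by 0.69 and 0.57, and Heyl, a target of Notch signalling, at -0.37, which was not called once the control level was modelled (adjusted p = 0.061). At 120 h 0 of 27 were called in either direction by limma, and 0 had an unadjusted p under 0.05, beside 0.513% of all genes called higher. Of the 27, Notch2, Fgf7, Areg, Il6 and Lif lay within 1 log2 unit of the background. Tnfrsf12a then ran from 4.41 to 5.22 in vehicle and from 4.44 to 5.10 in ANIT rats, and the difference of its effects between times was -2.08 ± 0.34 (adjusted p = 0.00021).

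**Figure D4:**
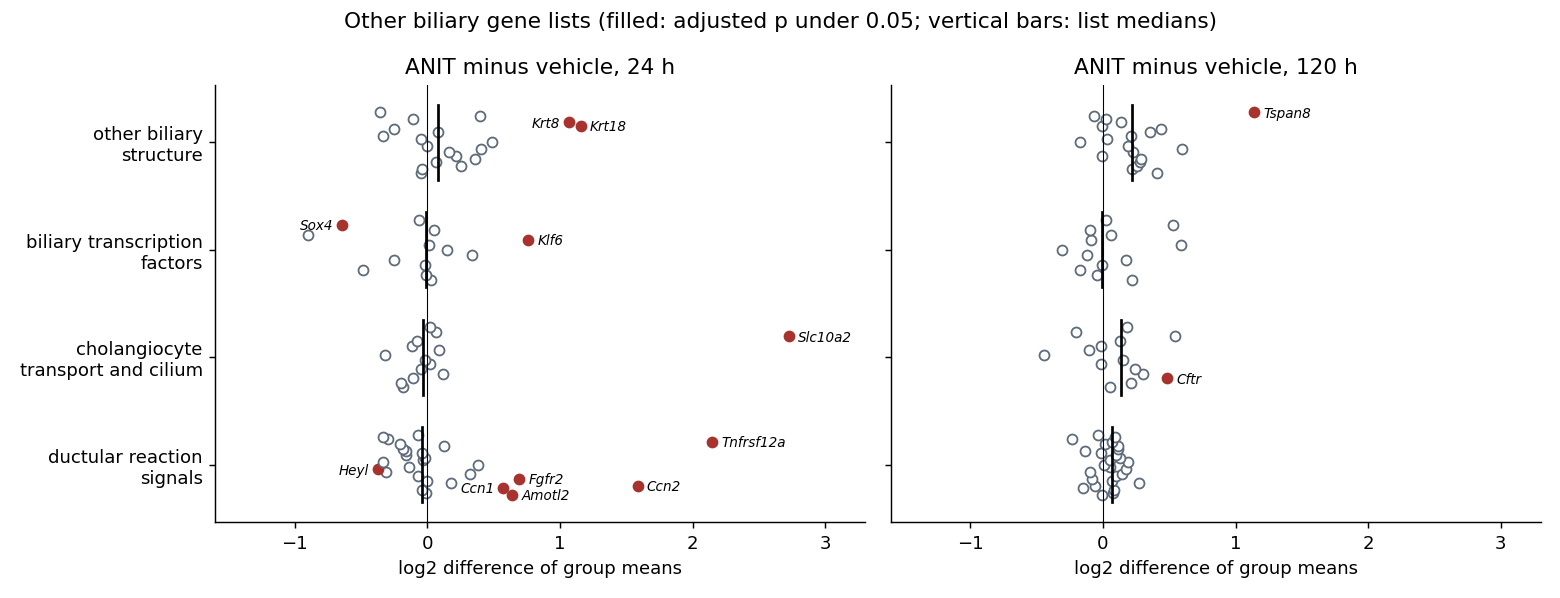
Log2 difference of ANIT and vehicle means (horizontal axes) at 24 h and 120 h for each measured gene of 4 other biliary lists, with called genes filled and named and list medians as vertical bars. Called signal genes appear at 24 h, and at 120 h only Tspan8 and Cftr are called in these lists.

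Markers of other cell types were set beside the members, and their counts read against 12.9% of all genes called higher and 5.31% lower at 24 h, and 0.513% and 1.51% at 120 h. With the control level in the model, 10.5% were called lower at 24 h and 1.88% higher at 120 h. The other shares in that model are not given. At 120 h 2 of 11 macrophage markers were called higher and 0 lower, and their mean level ran from 7.05 to 7.44 in ANIT and from 6.79 to 7.10 in vehicle rats. Gpnmb, a gene of lipid-laden macrophages, rose by 1.08 ± 0.19 (limma adjusted p = 0.0027) and the scavenger receptor Cd163 by 0.43 ± 0.10 (adjusted p = 0.024). The count was 3 with the control level, as Csf1r passed (adjusted p = 0.044). Of the 11, Itgam and Ccr2 lay within 1 log2 unit of the background. Of 7 B and T cell markers 0 were called at 120 h, and 0 had an unadjusted p under 0.05, with a mean level of 5.04 to 5.25 in ANIT and 4.94 to 5.12 in vehicle rats. At 24 h 2 of these 7, Cd8a and Cd79b, were called lower, as Cd24 was, with a mean level of 4.69 to 4.94 in ANIT and 4.91 to 5.16 in vehicle rats. In the model with the control level Cd79b was not called (adjusted p = 0.078) and Cd3e was called lower (adjusted p = 0.025). The part of leukocytes in the changes of Cd24 and Spp1 was not tested.

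Stellate cell and fibroblast markers showed 0 of 10 calls at 120 h, with 4 higher and 1 lower at an unadjusted p under 0.05. Their mean level ran from 6.64 to 7.20 in ANIT and from 6.33 to 6.93 in vehicle rats. Col1a1 had a change of 0.89 ± 0.24 (limma adjusted p = 0.050), Col3a1 of 0.41 ± 0.12 and Dcn of 1.02 ± 0.34. Of the 10, 2 were called higher with the control level, Col1a1 and Dcn (adjusted p = 0.034 and 0.011). The part of these cells in the members' changes was not tested. Of 7 neutrophil markers 0 were called at 120 h, with 1 higher at an unadjusted p under 0.05, and S100a8 and S100a9 were called higher at 24 h. Csf3r, Mmp8 and Mmp9 of that list lay within 1 log2 unit of the background. The 4 mesothelium markers, cells of the liver capsule that also carry Krt19, had 0 calls and 0 unadjusted p under 0.05 at both times, with a mean level of 4.48 to 4.99 in ANIT and 4.35 to 4.71 in vehicle rats at 120 h. Of these 4, Upk1b lay within 1 log2 unit of the background. The 5 endothelium markers had 0 calls at 120 h, and 0 had an unadjusted p under 0.05. Hepatocyte markers had 0 of 9 calls at 120 h, with 2 lower at an unadjusted p under 0.05, and with the control level Apoa1 was called lower (adjusted p = 0.038). Of 12 proliferation genes 0 were called at 120 h and 0 had an unadjusted p under 0.05, while Mcm2 and Ccnb1 were called lower at 24 h. Both calls were lost with the control level (adjusted p = 0.089 and 0.18), and Birc5 and Top2a were called lower instead (adjusted p = 0.0092 and 0.010). Aurkb of the proliferation list lay within 1 log2 unit of the background. Calls at 24 h in the remaining lists were 2 higher among macrophage markers, 2 higher and 1 lower among hepatocyte markers, 2 lower among stellate cell and fibroblast markers, and 1 higher and 2 lower among endothelium markers. Modelling the control level gave 1 lower call among macrophage markers, and hepatocyte markers had 1 higher and 2 lower.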

How the data were processed

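Liver RNA of 24 rats was measured on 1-colour 3' expression arrays. Values are log2 signals per probe set, as the authors deposited them. The submitters' processing notes name RMA and Partek, without versions. Values were used as deposited. Of the probe sets, 19068 named 1 gene in the platform annotation, 572 several and 11499 none listed. Names were checked through Entrez identifiers against a GRCr8 gene table, which renamed 0 and lacked 79. Each of 13438 genes took its probe set of highest mean.

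Groups came from the description label. A model of 4 group means was fitted with limma 3.58.1 in R 4.3.3 (lmFit, eBayes), with Benjamini-Hochberg adjustment over all genes, and was tested on simulated data. Replicate numbers follow accession order. Figures used Python 3.11.15 and matplotlib 3.10.9.

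The members and the 12 other lists, with 138 of 160 genes measured, were chosen with earlier results of these data known. Of each list the 3 genes of smallest p at 24 h and 120 h could be named, with the 5 genes most like Krt19. Some list genes beyond these were named after their values had been seen. Alternatives were the control level or beta-actin ratio as a covariate, quantile normalization, a median shift, probe set means, leaving out genes below the median level of all genes, only the groups compared, leaving out the 6 arrays of lowest SD, each array left out, and a fit across all probe sets.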

Additional observations from a re-analysis of the deposited data

Results flagged for a closer look

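The effect of ANIT differed between the times in 4 members by the test of the difference itself (limma, 120 h minus 24 h). The log2 difference was 1.09 for Cd24, 1.06 for Prom1, 0.88 for Krt19 and 0.84 for Muc1. In vehicle rats of 120 h, the Prom1 value of replicate 3, 6.58, stood apart from the others of its group, which lay between 5.96 and 6.14. It was the only such value among 40 sets of 6 rats, where chance flags about 1 set in 20.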

How the results depend on the processing

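The rises of Krt19, Cd24 and Prom1 at 120 h kept their calls under every alternative that held the gene, and the number of members called higher there ran from 3 to 4 when each array was left out in turn. The count at 24 h was less stable. The number called lower, 2 as reported, was 0 after the median shift and 0 without the 6 arrays of lowest SD, 1 with the beta-actin ratio, and 1 when genes whose mean lay below the median of all genes were left out, a fit that held only 2 members, Epcam and Prom1. It ran from 1 to 2 with single arrays left out. The number called higher for the difference between times, 4 as reported, was 2 with the beta-actin ratio and 1 when genes below that median were left out, and ran from 4 to 6 with single arrays left out. The counts of 0 stayed at 0 under all alternatives run.

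Values that turned sign were not called in either setting. With the control level, Spp1 at 120 h was -0.078, and between vehicle groups Epcam was -0.089, Spp1 0.13 and Prom1 -0.025. After quantile normalization Spp1 at 120 h was -0.032, and Krt7 was -0.048 for the difference between times and 0.051 between vehicle groups. After the median shift Sox9 at 24 h was 0.00425, Spp1 at 120 h -0.013, and Krt7 -0.026 for the difference and 0.036 between vehicle groups. Without the 6 arrays of lowest SD, Krt7 and Krt23 at 24 h were -0.080 and 0.010, and Spp1 was -0.24 at 120 h, -0.23 for the difference and 0.25 between vehicle groups. With the beta-actin ratio Spp1 at 120 h was -0.047. With single arrays left out, Krt7 ran from -0.014 to 0.088 at 24 h and from -0.071 to 0.035 between vehicle groups, Spp1 from -0.042 to 0.13 at 120 h and from -0.18 to 0.011 between vehicle groups, Sox9 from -0.0040 to 0.10 at 120 h, and Prom1 from -0.020 to 0.12 between vehicle groups. The cause of these shifts was not tested. No paired analysis was possible because the labels pair no rats across groups. Signal near the background limits what Krt7, Krt23 and Sox9 can show.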
